A study of Mus musculus with 16 samples.

Results

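A set of 10 genes of the transforming growth factor beta (TGF-beta) pathway were examined in CD8+ T cells from skin, lung, liver and draining lymph node: the ligand Tgfb1, the receptors Tgfbr1 and Tgfbr2, the signal transducer Smad3, the corepressors Ski, Skil and Tgif1, and the feedback inhibitors Smad7, Pmepa1 and Ldlrad4. They were taken by name from a list of receptor, Smad and feedback genes, which was chosen with earlier results of these data known. All 10 of 10 listed genes were among the 9223 genes of the deposited count table. The cells were Pmel T cells, CD8+ T cells with a transgenic receptor for a melanoma antigen, and carried the congenic marker Thy1.1. All 4 groups came from C57BL/6 mice aged 16 weeks with melanoma-associated vitiligo, 45 days after the tumor was removed by surgery, and the labels tell the groups apart by tissue. No group without tumor, surgery or vitiligo was analysed here, and neither the number of mice nor any pooling of them is given in the sources used here.

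TGF-beta is secreted in a latent form and, once activated, binds a receptor complex of TGFBR2 and TGFBR1, which phosphorylates SMAD2 and SMAD3. These enter the nucleus with SMAD4 and act on target genes, where SKI, SKIL and TGIF1 hold transcription back. SMAD7, PMEPA1 and LDLRAD4 are made in response to the signal and dampen it at the receptor or at the receptor-activated Smads. In CD8+ T cells of epithelial tissues the pathway is known for raising the integrin chain CD103, encoded by Itgae, which binds E-cadherin and marks many resident memory T cells.

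The table held 1224 skin, 2322 lung, 556 liver and 1625 lymph node cells, with summed counts from 1928185 in liver to 8072278 in lung and a median per cell from 2517.5 in skin to 3095.5 in liver. Each tissue was 1 library, so values have no replicate, intervals cover counting error only, and no test between tissues was possible. The 7 T cell markers summed to between 7994 and 10257 counts per 1000000 counts (CPM) in every tissue, and a count of the most often detected of them was present in 98.5% to 99.3% of cells at equal depth. Skin and lymph node cells carry a 2 in their names that lung and liver cells lack, and the summed level of processed pseudogenes was 7766 CPM for skin cells and 7074 CPM for lymph node cells, whereas it was 2149 CPM for lung and 2102 CPM for liver. Skin against lymph node and lung against liver are therefore the 2 comparisons within a naming, and in the other 4 the tissue and whatever the naming marks cannot be told apart. Genes of immediate-early and stimulation response, 16 in all, summed to 13704 CPM in skin, well above lymph node at 3858, liver at 2891 and lung at 2220. Skin, lung and liver were digested with enzymes and the lymph node was dispersed mechanically, per the labels' protocols, and the part of tissue handling in the results below was not tested.

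Promoter sequence was at hand in RefSeq (GRCm38.p6) for 6 of the 10 genes, with 11 start sites. Of these, 3 are shown because these genes span the range of differences between skin and lymph node described below: Tgif1, which differed most, Tgfb1, the ligand, and Tgfbr2, which differed little. Each run is the 250 bases upstream of a start site, 5′ to 3′ on the gene's strand, with capitals marking CAGAC or its reverse complement GTCTG, letters known as a Smad-binding element. The Tgif1 window lies at chr17:70853533-70853782 on the minus strand, that of Tgfb1 at chr7:25686752-25687001 on the plus strand and that of Tgfbr2 at chr9:116175364-116175613 on the minus strand.
Tgif1: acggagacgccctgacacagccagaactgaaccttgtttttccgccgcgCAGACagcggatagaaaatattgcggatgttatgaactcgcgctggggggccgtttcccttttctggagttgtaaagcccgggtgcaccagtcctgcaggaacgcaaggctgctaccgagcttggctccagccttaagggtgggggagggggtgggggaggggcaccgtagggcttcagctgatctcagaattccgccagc
Tgfb1: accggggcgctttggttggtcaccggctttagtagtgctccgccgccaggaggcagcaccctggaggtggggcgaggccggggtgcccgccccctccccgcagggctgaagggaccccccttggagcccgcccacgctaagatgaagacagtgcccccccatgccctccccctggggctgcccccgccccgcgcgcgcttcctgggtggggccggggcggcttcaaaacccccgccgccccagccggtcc
Tgfbr2: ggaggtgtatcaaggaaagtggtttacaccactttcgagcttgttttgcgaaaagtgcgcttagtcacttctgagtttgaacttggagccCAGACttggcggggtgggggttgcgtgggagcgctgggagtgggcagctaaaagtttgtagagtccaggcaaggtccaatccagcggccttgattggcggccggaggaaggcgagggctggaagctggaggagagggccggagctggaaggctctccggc
The letters CAGAC or GTCTG occurred in 5 of the 11 promoters, among them those of Tgif1 and Tgfbr2 above, and in 42.2% of all 32851 promoters of this length. The palindrome GTCTAGAC, made of GTCT and its reverse complement AGAC, occurred in 0 of the 11 and in 0.167% of all promoters. The AP-1 letters TGANTCA and the cyclic AMP response letters TGACGTCA, each read on both strands, also occurred in 0 of the 11, against 6.75% and 1.55% of all promoters. These are counts of letters in these windows only.

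Between skin and lymph node the ligand, 2 of the 3 corepressors and all 3 feedback genes were higher in skin, while the receptors and Smad3 lay within 2-fold. By pooled CPM, 6 of the 10 genes were at least 2-fold higher in skin and 0 at least 2-fold lower, where 5.59% and 10.3% of all 8961 genes with at least 20 summed counts were. The median log2 ratio of the 10 genes was 1.5, beside -0.20 over all genes. The order from the highest ratio was Tgif1, Skil, Pmepa1, Ldlrad4, Smad7 and Tgfb1.

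**Figure D1:**
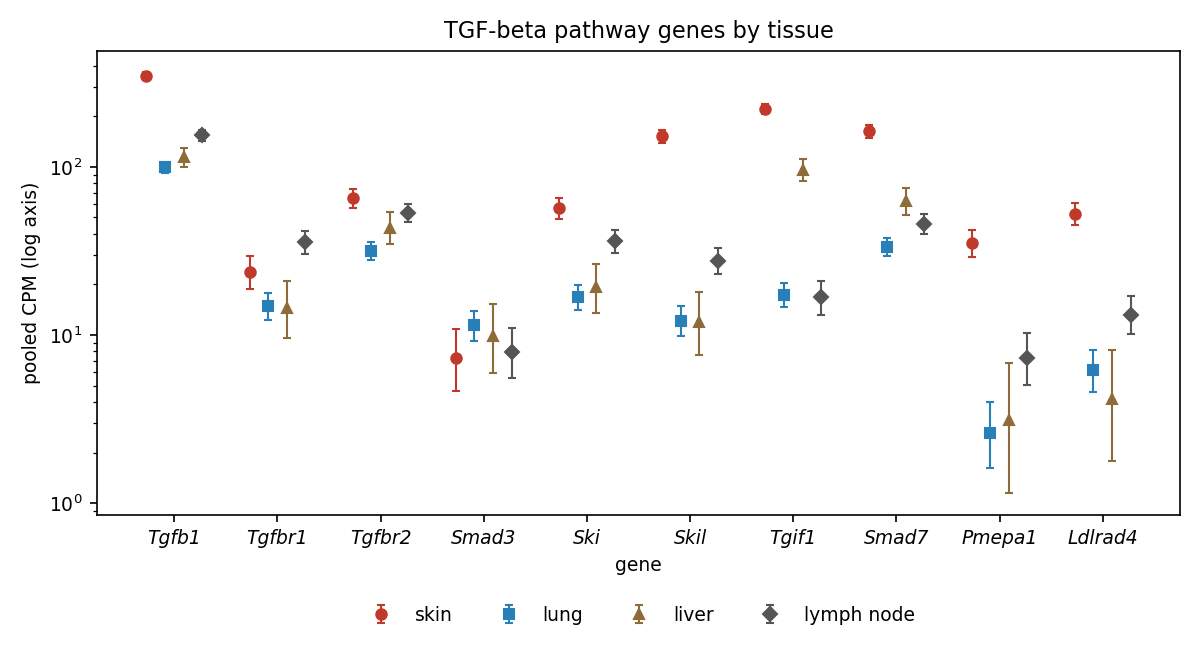
Pooled CPM (log axis) of each gene in skin, lung, liver and lymph node, with exact 95% Poisson intervals as bars. Skin is highest for 8 of the 10 genes, lymph node for Tgfbr1 and lung for Smad3, and the intervals of Smad3 overlap in all 4 tissues.

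Tgfb1, the ligand, was measured at 347 CPM in skin, followed by lymph node at 154, liver at 114 and lung at 99.2. Its level in skin was 2.25-fold that in lymph node (95% interval 2.05 to 2.48) and 3.49-fold that in lung (3.19 to 3.83). Lymph node was in turn 1.35-fold above liver (1.16 to 1.58) by total counts, whereas with size factors the ratio of liver to lymph node was 0.903 (0.773 to 1.05), and the ratio of liver to lung, 1.15 (0.986 to 1.34), did not differ from equality beyond counting error. To compare shares of cells, each cell was thinned to 1886 counts, which left 1083 skin, 2049 lung, 529 liver and 1494 lymph node cells. At that depth a Tgfb1 count was present in 42.5% of skin cells (39.5 to 45.5), 17.2% of lung cells (15.6 to 18.9), 18.1% of liver cells (15 to 21.7) and, in lymph node, in 26.4% (24.2 to 28.8). Without thinning the shares were 52.7%, 27.6%, 30.6% and 33.2%. As a measure of stray RNA, Lyz2, a myeloid gene, was counted at equal depth in 5.37% of lung and 1.34% of lymph node cells. It was counted in 0 of the skin and liver cells. Of the other listed myeloid genes, Cst3 was counted in every tissue, from 35.2% of lymph node to 37.6% of skin cells. Cd68 was counted in 1.47% of lymph node to 4.16% of liver cells, and Csf1r and Adgre1 in 0. Scgb1a1, of airway cells, was counted in 2.20% of lung and 2.08% of liver cells, so shares of a few percent in lung and liver are at the level of such background and are given here as values only.

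Between skin and each other tissue the receptors differed less than the ligand did. Tgfbr2, which binds the ligand and activates the partner receptor, was at 65.0 CPM in skin, 53.2 in lymph node, 43.6 in liver and 31.7 in lung. Skin was 1.22-fold above lymph node (1.01 to 1.48), lymph node and liver could not be separated (1.22, 0.948 to 1.58), and liver was 1.37-fold above lung (1.06 to 1.76). Tgfbr1, the partner kinase that phosphorylates the Smads, had another order, with lymph node highest at 35.7 CPM, skin at 23.7, lung at 14.9 and liver at 14.5. Lymph node was 1.51-fold above skin (1.14 to 2.0) and skin 1.59-fold above lung (1.18 to 2.14). Lymph node was also 2.40-fold above lung (1.89 to 3.07) and 2.46-fold above liver (1.64 to 3.82), pairs in which Tgfb1 was 1.55-fold and 1.35-fold apart. At equal depth a Tgfbr1 count was present in 6.63% of lymph node cells (5.42 to 8.01) and 4.34% of skin cells (3.21 to 5.73), and a Tgfbr2 count in 9.30% (7.88 to 10.9) and 11.0% (9.19 to 13.0).

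Smad3, the transducer, was at 11.4 CPM in lung, 9.85 in liver, 7.94 in lymph node and 7.29 in skin, from only 24 to 92 counts a tissue. None of its neighbouring levels differed beyond counting error, and the share of cells at equal depth was from 1.34% to 2.25%. Its ratio of skin to lymph node was 0.918 (0.524 to 1.58) by total counts and 1.02 by size factors, the only one of the 60 tissue ratios of these genes whose direction turned with the scaling.

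The 3 corepressors did not share an order. Tgif1, a homeodomain protein that recruits histone deacetylases to Smad targets, was at 221 CPM in skin and 95.9 in liver, against 17.3 in lung and 16.8 in lymph node. Skin was 13.2-fold above lymph node (10.4 to 16.9) and 2.30-fold above liver (1.96 to 2.72). Liver was 5.53-fold above lung (4.42 to 6.94), while lung and lymph node could not be separated (1.03, 0.777 to 1.39). At equal depth 30.0% of skin cells (27.3 to 32.8) and 16.6% of liver cells (13.6 to 20.1) had a Tgif1 count, beside 3.56% in lung and 3.21% in lymph node. Lung against liver is a comparison within a naming, and Tgif1 was the only 1 of the 10 genes at least 2-fold apart there, where 2.56% of 8867 genes were at least 2-fold lower in lung and 3.41% at least 2-fold higher.

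Skil, the SKI-like corepressor that binds Smads and is degraded and then remade after a TGF-beta signal, was far higher in skin than in the other tissues. Its levels were 152 CPM in skin, 27.6 in lymph node, 12.1 in lung and 11.9 in liver. Skin was 5.50-fold above lymph node (4.51 to 6.74), lymph node 2.27-fold above lung (1.73 to 2.99), and lung and liver could not be separated (1.02, 0.641 to 1.68). A Skil count was present at equal depth in 23.4% of skin cells (20.9 to 26.0), 5.15% of lymph node cells, 2.29% of lung cells and 1.89% of liver cells. Ski itself, the founding member of that family, was at 56.8 CPM in skin, 36.2 in lymph node, 19.2 in liver and 16.7 in lung. The ratio of skin to lymph node was 1.57 (1.27 to 1.95), below the 2-fold line that Skil and Tgif1 passed.

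Among the feedback inhibitors, Smad7, which blocks the receptor and brings ubiquitin ligases to it, was at 163 CPM in skin, 62.2 in liver, 45.7 in lymph node and 33.6 in lung. By total counts every step of that order was larger than counting error, with skin 2.62-fold above liver (2.14 to 3.22), liver 1.36-fold above lymph node (1.08 to 1.71) and lymph node 1.36-fold above lung (1.13 to 1.64). With size factors the ratio of lung to lymph node was 0.884, and its interval (0.735 to 1.06) held equality. At equal depth its share of cells was 24.7% in skin, 11.2% in liver, 8.70% in lymph node and 6.05% in lung. Pmepa1, a membrane protein that sequesters receptor-activated Smads, was at 35.2 CPM in skin, 7.28 in lymph node, 3.11 in liver and 2.60 in lung, from 116, 33, 6 and 21 counts. Skin was 4.84-fold above lymph node (3.26 to 7.36), and lymph node 2.80-fold above lung (1.57 to 5.09), while liver, with 6 counts, could not be separated from lymph node (2.34, 0.968 to 6.83) or from lung (1.20, 0.395 to 3.06). Ldlrad4, a relative of Pmepa1 with the same Smad-interacting motif, was at 52.5 CPM in skin, 13.2 in lymph node, 6.19 in lung and 4.15 in liver. Its ratio of skin to lymph node was 3.97 (2.94 to 5.42), and that of lymph node to lung 2.14 (1.44 to 3.18).

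**Figure D2:**
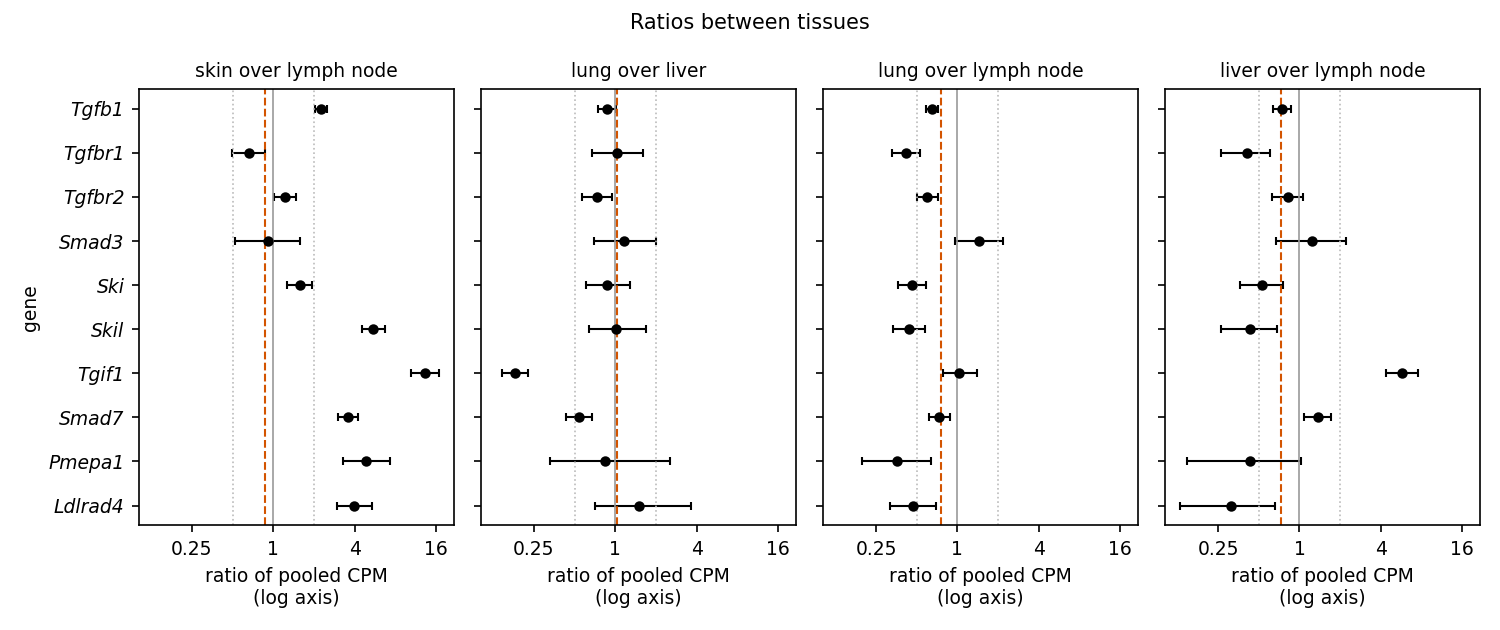
Ratio of pooled CPM (log axis) for 4 pairs of tissues, with exact 95% intervals. Grey dotted lines mark 2-fold and the orange dashed line the median over all genes, and 6 genes lie beyond 2-fold in skin over lymph node against only Tgif1 in lung over liver.

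The comparisons of lung and of liver with lymph node share the lymph node library and cross the naming. In lung 5 of the 10 genes were at least 2-fold lower than in lymph node (Tgfbr1, Ski, Skil, Pmepa1 and Ldlrad4) and 0 higher, where 18.3% of all genes were that much lower and 3.58% higher. In liver 4 were lower (Tgfbr1, Skil, Pmepa1 and Ldlrad4) and 1 higher (Tgif1, 5.72-fold, 4.36 to 7.58), where 22% and 3.92% were. The median log2 ratio was -0.92 for lung and -0.67 for liver, beside -0.41 and -0.45 over all genes. With size factors in place of total counts, which shift every log2 ratio by 0.27 for lung and 0.28 for liver, only 1 gene in lung and 3 in liver were still 2-fold apart. The share of all genes 2-fold apart was not computed with size factors, so these counts have no background beside them. Skin over lung gave 8 of 10 genes at least 2-fold higher and 0 lower, beside 15.7% and 6.37% of all genes, and skin over liver 7 and 0, beside 16.4% and 5.07%. Pmepa1 (13.5-fold, 8.46 to 22.7), Tgif1 (12.8-fold, 10.6 to 15.4) and Skil (12.5-fold, 10.04 to 15.7) had the highest ratios of skin to lung. These values moved with the cells taken: without the lung cells of cluster 8, described below, Pmepa1 gave 44.0 (19.6 to 122) and Skil 19.9 (15.1 to 26.7), and among cells without a count of 4 stimulation genes, also below, Pmepa1 gave 35.4 and Tgif1 8.27. With each cell weighted equally Pmepa1 gave 8.70.

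Itgae was at 542 CPM in skin, 373 in lymph node, 191 in lung and 179 in liver, and at least 1 Itgae count was present in 71.7% of skin, 44.1% of lung, 42.4% of liver and 59.7% of lymph node cells. Lymph node was thus nearer to skin in Itgae than in Tgif1, Skil or the feedback genes: skin over lymph node was 1.45 (1.36 to 1.55) for Itgae. Within each tissue, cells with an Itgae count were set against those with none. A cell without a count can still hold Itgae RNA, so the 2 sets overlap in what they express. Cells with a count were deeper, with medians of 2576 against 2435 counts in skin, 3331 against 2616 in lung, 3359 against 2857 in liver and 2718.5 against 2563 in lymph node.

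In skin, levels of these genes differed little between Itgae-detected and other cells. Of the 10 genes 0 were at least 1.5-fold apart in either direction, where 11% of all genes were that much higher in the Itgae-detected cells and 5.32% lower. Tgif1 was at 222 CPM in Itgae-detected and 220 in other cells, a ratio of 1.01 (0.853 to 1.20). Smad7 was at 162 and 165 CPM (0.981, 0.808 to 1.20), and Tgfb1 at 343 and 358 CPM (0.957, 0.838 to 1.09). The intervals of these 3 genes hold no 1.5-fold difference in either direction. Skil was the only gene in skin whose interval lay off equality, at 160 CPM in the 877 Itgae-detected cells and 127 CPM in the 347 others (1.27, 1.02 to 1.58). Ldlrad4 was at 56.8 and 40.7 CPM, with an interval that reached equality (1.39, 0.956 to 2.08).

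In liver 0 of the 7 genes with at least 20 counts were 1.5-fold apart, beside 7.18% of genes higher and 7.91% lower, and Tgif1 was at 97.3 and 94.8 CPM (1.03, 0.760 to 1.38). In lung 2 genes were at least 1.5-fold lower in Itgae-detected cells and 0 higher, where 5.54% and 3.74% of all genes were. These were Skil, at 9.0 against 15.2 CPM (0.591, 0.381 to 0.905), and Pmepa1, at 1.75 against 3.44 CPM (0.509, 0.174 to 1.35, from 7 and 14 counts). Smad7 was at 29.2 against 37.8 CPM (0.773, 0.603 to 0.989). Without the lung cells of cluster 8, described below, the ratio of Skil was 0.694 (0.392 to 1.21) and that of Smad7 0.885 (0.670 to 1.17), so both intervals then reached equality. Compared within 3 equal classes of depth, the ratios were 0.805 for Skil and 0.929 for Smad7, and with Itgae read after thinning to equal depth they were 1.01 for both genes.

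In lymph node 2 genes were at least 1.5-fold lower in Itgae-detected cells, Smad3 at 6.06 against 11.0 CPM (0.550, 0.268 to 1.12) and Tgif1 at 13.9 against 21.5 CPM (0.647, 0.402 to 1.04), and 0 were higher, where 5.07% and 5.35% of all genes were. Both intervals held equality. Without the lymph node cells of cluster 0, also described below, Tgif1 gave 0.971 and Smad3 0.708, and 0 genes were 1.5-fold apart. Over the 4 tissues 3 of the 40 ratios had an interval off equality, namely Skil in skin and Skil and Smad7 in lung. With that many intervals at 95% and cells that are not replicates, each is a description of these libraries.

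**Figure D3:**
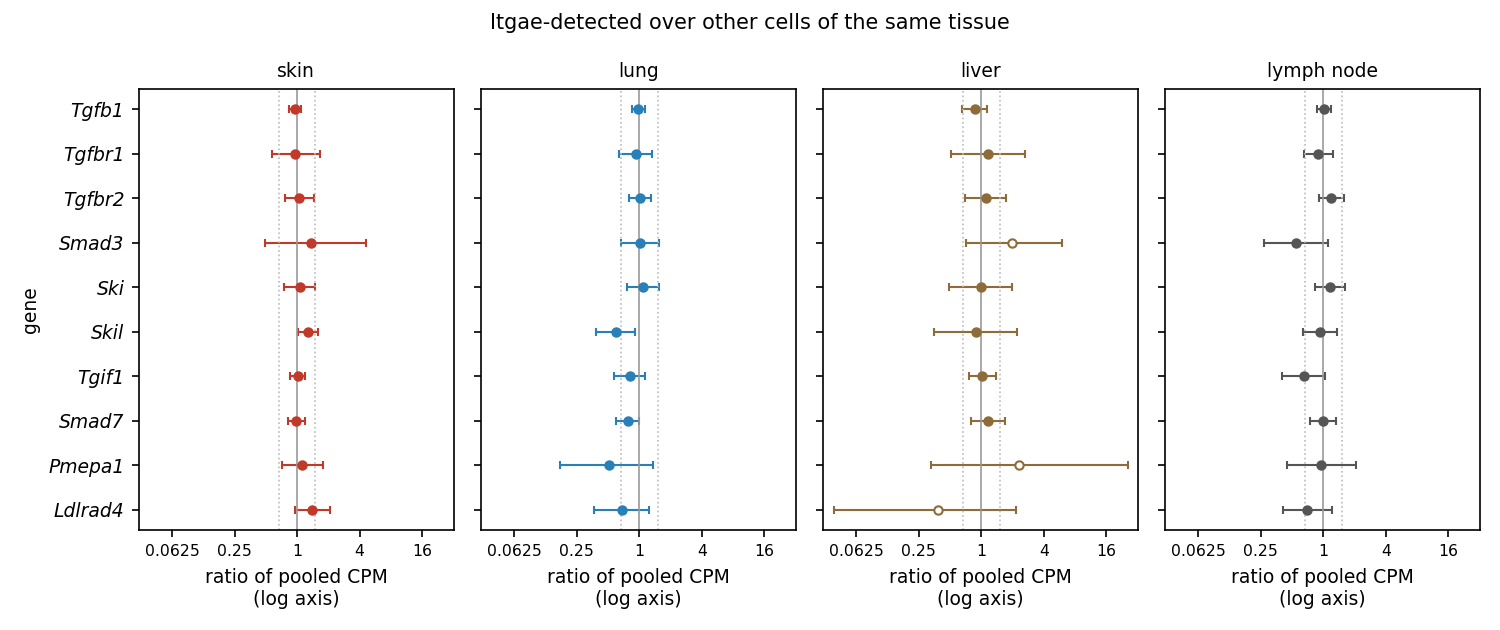
Ratio of pooled CPM (log axis) in Itgae-detected over other cells within each tissue, with exact 95% intervals, dotted lines at 1.5-fold and open points for genes under 20 counts. Filled points lie within 1.5-fold of 1 in skin and liver, the open liver points spread from 0.385 to 2.31 with wide intervals, and Skil and Smad7 in lung lie below 1.

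The number of these genes counted in a cell at equal depth had a mean of 1.61 in skin, 0.705 in lymph node, 0.664 in liver and 0.446 in lung. In skin 21.6% of cells had a count of at least 3 of the 10 genes and 17.5% of none, whereas in lung 0.683% had at least 3 and 63.3% none. Skin cells with and without an Itgae count after thinning had means of 1.63 and 1.58. Of the 45 pairs of genes, 27 had at least 10 skin cells given by the product of their shares, and in 18 of these the number of cells with both was above that product, with a median ratio of 1.07. The range was from 0.520 for Tgfbr2 with Ski to 1.81 for Tgfbr1 with Smad7. A Smad7 count was present in 44.7% of the 47 skin cells with a Tgfbr1 count (30.2 to 59.9) and in 23.7% of the others (21.2 to 26.5). In liver Tgif1 was counted in 26.0% of cells with Tgfb1 (17.6 to 36.0) and in 14.6% of the others (11.4 to 18.2), while Tgfb1 with Smad7, the other of only 2 liver pairs with at least 10 cells given by the product, was below it with a ratio of 0.841. In lung 1 of 4 such pairs was above the product, with a median ratio of 0.882, and in lymph node 5 of 7, with 1.10.

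Clusters made without these genes, other pathway genes or Itgae held 94.3% of skin cells in cluster 5, 84.5% of lymph node cells in cluster 1 and 64.2% of liver cells in cluster 7. Clusters 4 and 6 held lung cells (655 and 1290) together with liver cells (63 and 111), and cluster 3, led by cell cycle genes, held cells of all 4 tissues. Within lung and lymph node, though, 1 cluster each stood apart in the genes described here, and these clusters were singled out after their values were seen. Lung cluster 8 held 292 cells, 12.6% of lung cells, with a median of 1843 counts against 3140.5 in the other lung cells, and was led by Bcl2, Trib3, Slc7a5, Atf5 and Asns. It was given no cell type name, and 0 of its cells were called doublets. In all, 5 of the 10 genes were at least 2-fold higher in it than in other lung cells and 0 lower, where 12.6% of all genes were that much higher and 8.32% lower.

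Pmepa1 was at 26.1 CPM in lung cluster 8, from 15 counts in 14 cells, and at 0.800 CPM in the other lung cells, from 6 counts, a ratio of 32.6 (11.9 to 102). The cluster thus held 71.4% of the lung's Pmepa1 counts in 7.13% of all lung counts. Skil was at 71.2 against 7.60 CPM (9.37, 6.11 to 14.2), Ldlrad4 at 27.8 against 4.54 CPM (6.13, 3.16 to 11.4), Smad7 at 99.0 against 28.5 CPM (3.47, 2.54 to 4.67) and Ski at 45.2 against 14.5 CPM (3.11, 1.94 to 4.80). All 3 feedback genes and 2 of the 3 corepressors were therefore higher in this cluster. Tgif1, the third corepressor, was at 20.8 and 17.1 CPM (1.22, 0.615 to 2.21), Tgfb1 at 120 and 97.6 CPM (1.23, 0.945 to 1.57) and Itgae at 186 and 191 CPM (0.971, 0.790 to 1.18). At equal depth, which only 131 cells of the cluster reached, a Skil count was present in 12.2% of them (7.15 to 19.1) and in 1.62% of the other lung cells (1.10 to 2.29). Pmepa1 was counted in too few cells after thinning to compare shares, with 2 lung cells in all here and 10 with another random thinning. Without thinning a Pmepa1 count was present in 14 of the 292 cells and in 6 of the 2030 others. The 16 stimulation genes summed to 3075 CPM in the cluster and 2154 in other lung cells. Of Lyz2, Scgb1a1, Igkc and Cd79a, the most often detected was counted in 8.40% and 5.16% of cells at equal depth. The part of these genes in the result was not tested.

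Lymph node cluster 0 held 165 cells and was led by Izumo1r, Tnfsf8 and Slamf6. Of the central memory markers, Lef1 and Ccr7 were among its 10 leading genes, while Il7r was among those of lymph node cluster 1, and it is called by its number here. Tgif1 was at 52.7 CPM there and 12.9 in other lymph node cells (4.07, 2.38 to 6.76), and Ldlrad4 at 36.6 and 10.7 CPM (3.41, 1.80 to 6.16). Smad3 was at 16.0 and 7.08 CPM, from 7 and 29 counts (2.26, 0.837 to 5.28). These 3 genes were at least 2-fold higher and 0 lower, beside 5% and 12% of all genes. Itgae was 4.64-fold lower in the cluster (3.37 to 6.58), and the stimulation genes summed to 6411 CPM there against 3586 in the rest. In liver, cluster 7, with 357 of the 556 cells and Ctla4, Serpinb9 and Cxcr4 among its leading genes, had Tgif1 at 122 against 56.9 CPM (2.14, 1.52 to 3.08) and Smad7 at 78.8 against 37.5 CPM (2.10, 1.37 to 3.31). These were 2 of 7 genes higher and 0 lower, beside 3.73% and 3.66% of all genes. Outside cluster 7, liver cluster 4 had Tgif1 at 65.1 CPM (39.2 to 102, from 19 counts) and liver cluster 6 at 45.9 CPM (25.7 to 75.8, from 15 counts). The same clusters in lung were at 10.02 CPM (6.94 to 14.0) and 23.7 CPM (19.0 to 29.4), so the intervals of cluster 6 overlapped.

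**Figure D4:**
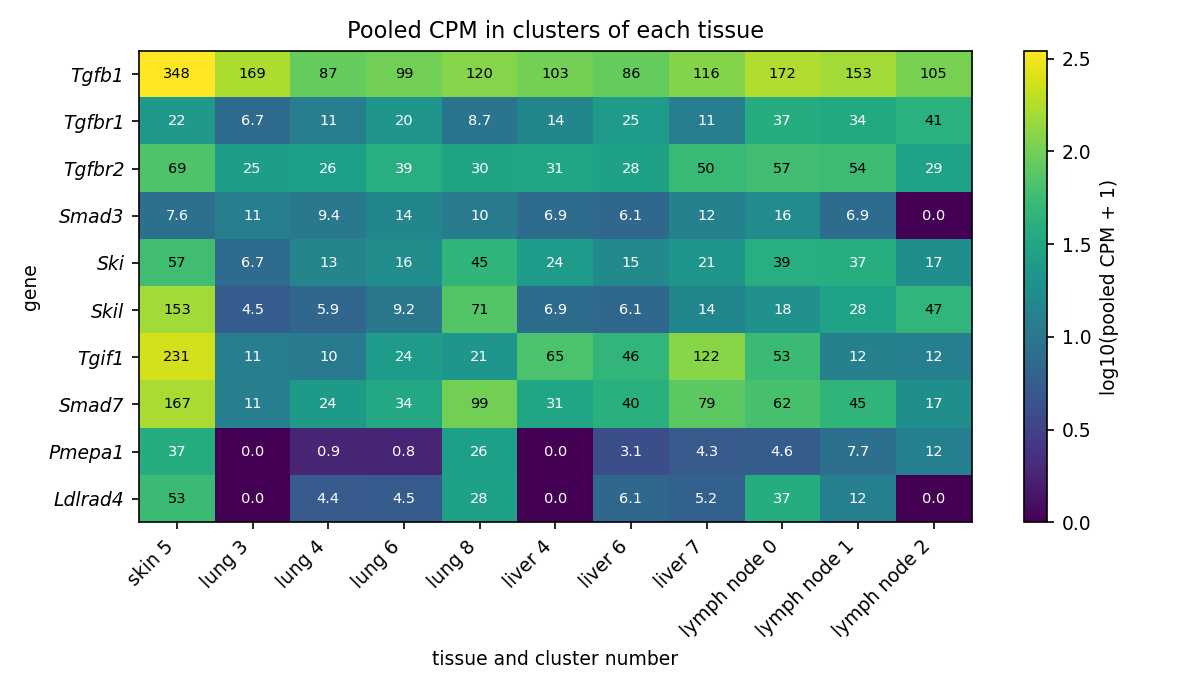
Pooled CPM of each gene in the 11 clusters of a tissue with at least 50 cells, coloured by log10(CPM + 1). Lung cluster 8 stands apart from the other lung clusters in Ski, Skil, Smad7, Pmepa1 and Ldlrad4 but not in Tgif1, and Tgif1 is highest in skin cluster 5 and liver cluster 7.

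Across these 11 groups Skil and Pmepa1 had the highest Pearson correlation of log2(CPM + 10) of any pair, 0.98. Ski with Ldlrad4, Smad7 with Ski and Smad7 with Ldlrad4 followed (0.86 each), and Tgfbr1 with Smad3 had the lowest, -0.41. Pmepa1 was at 36.6 CPM in skin cluster 5, 26.1 in lung cluster 8 and at most 11.7 in any other group. Its correlations thus rest largely on those clusters. Pmepa1 also had fewer than the 200 counts asked for in the search for like genes below. The groups share 4 libraries, and skin gave 1 of them, so these values describe the groups and carry no test. Over 4341 genes, the genes most like each gene were Nr4a2, Crem and Dgat1 for Tgif1 (0.95, 0.91 and 0.91), Fth1 for Skil (0.97), Sqstm1 for Smad7 (0.96), Ccnt1 and Nfkb2 for Ldlrad4 (0.97 and 0.95), Ptpre for Ski (0.95), Ppm1h for Tgfbr1 (0.96), Acat1 for Tgfbr2 (0.92) and Eif4a1 for Tgfb1 (0.91). Nr4a2, an orphan nuclear receptor induced by antigen receptor signals, was at 243 CPM for skin cells and 19.0 for those of lymph node.

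Several of these genes, Tgif1 and Smad7 among them, are known to respond to other stimuli, so cells were split by a count of Fos, Fosb, Egr1 or Nr4a1 at equal depth. Such a count was present in 94.8% of skin cells, 21.1% of lung, 31.8% of liver and 12.7% of lymph node cells, which left only 56 skin cells with none. In skin 2 genes were at least 1.5-fold higher in cells with a count and 2 lower, beside 17.2% and 21.4% of all genes. The lower were Tgfbr1, at 21.1 against 46.0 CPM (0.459, 0.219 to 1.11), and Smad3, at 7.62 against 11.5 CPM (0.662, 0.163 to 5.81). Both intervals held equality, with 8 and 2 counts in the cells with none. Tgif1 was at 233 CPM in skin cells with a count and 121 in those with none (1.93, 1.25 to 3.14), and Smad7 at 168 and 97.8 CPM (1.71, 1.06 to 2.97). Tgif1 was higher in such cells in lung as well, at 30.1 against 14.6 CPM (2.06, 1.40 to 2.98), and in liver, at 128 against 81.7 CPM (1.57, 1.15 to 2.12). Those were 1 of 2 genes higher in each, the other being Ldlrad4 in lung and Skil in liver with intervals that held equality, beside 6.92% and 7.25% of all genes, and 0 of 9 in lung and 2 of 7 in liver were lower, beside 7.37% and 9.9%. In lymph node 4 genes were higher and 1 lower, beside 8.75% and 12.4%, and the intervals lay off equality for Smad7, at 73.5 against 40.5 CPM (1.81, 1.25 to 2.58), and Skil, at 42.2 against 24.5 CPM (1.73, 1.04 to 2.75). Pmepa1 in skin was at 36.0 and 40.3 CPM (0.895, 0.419 to 2.28).

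Between the 56 skin cells and the 1305 lymph node cells with none of the 4 counts, Tgif1 was at 121 against 16.8 CPM (7.18, 4.16 to 11.9) and Skil at 127 against 24.5 CPM (5.17, 3.09 to 8.30). Pmepa1 gave 5.89 (2.16 to 13.9), Ldlrad4 5.47 (2.55 to 10.8) and Smad7 2.41 (1.37 to 3.99), while Tgfb1, at 1.92 (1.42 to 2.55), was below the 2-fold line. The ratio of Tgif1 was thus below the 13.2 of all cells, that of Skil was near its 5.50, and those of Pmepa1 and Ldlrad4 were above their 4.84 and 3.97, with wide intervals. Tgfbr1, from only 8 counts in these skin cells, was at 46.0 against 35.0 CPM in lymph node, the other order from all cells. Cells with none of 4 counts can still have been stimulated, and these 56 cells are few.

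**Figure D5:**
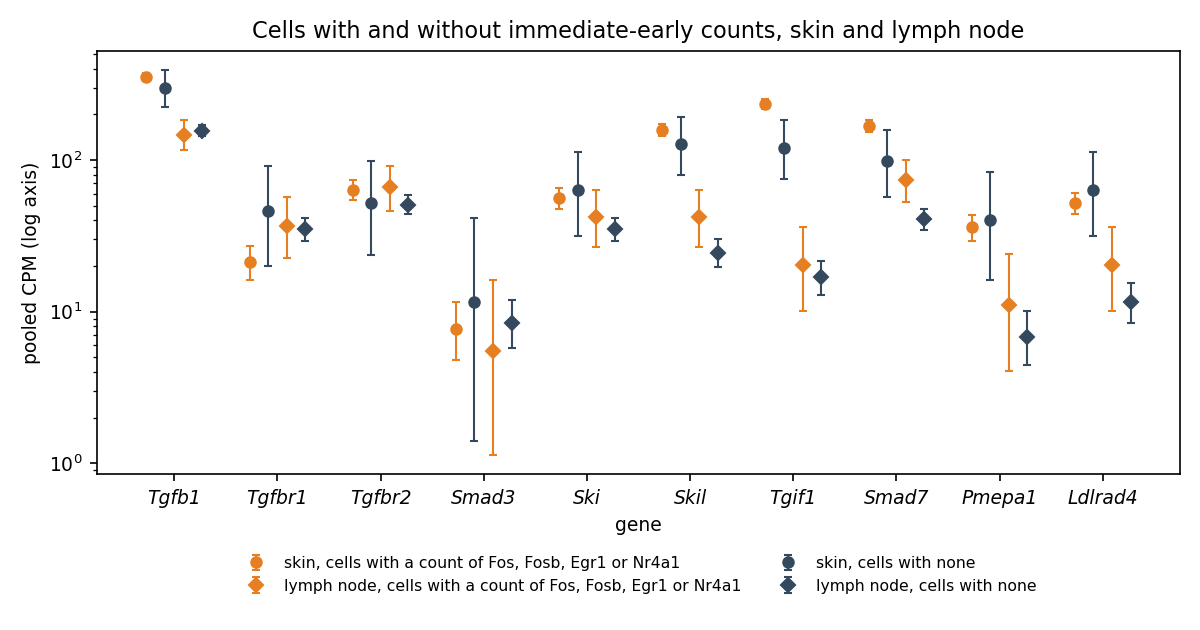
Pooled CPM (log axis) in skin and lymph node cells with and without a count of Fos, Fosb, Egr1 or Nr4a1 at equal depth, with exact 95% Poisson intervals. In cells with none, skin points lie above those of lymph node for every gene, including Tgfb1 (299 against 156 CPM). Tgfbr2 was close, at 51.8 against 50.8 CPM, and the skin points of Tgfbr1 and Smad3 rest on 8 and 2 counts.

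Of 64 other genes listed for the pathway, 42 were in the table. Among ligands and their activation 2 of 12 were present, and Furin, a protease that cleaves the TGF-beta precursor, was at 132 CPM for skin cells and 21.0 for those of lymph node (6.27, 5.01 to 7.92). Neither of the 2 was lower in skin. Of 3 other receptors measured 0 were 2-fold apart between skin and lymph node. Tgfbr3, the coreceptor betaglycan, was at 15.2 CPM in skin, 19.2 in lymph node, 2.48 in lung and 7.26 in liver. Of 17 Smads and regulators 3 were at least 2-fold higher in skin and 0 lower: Bambi, a decoy receptor (3.75, 2.14 to 6.84), Tgif2, the paralog of Tgif1 (5.33, 2.40 to 13.4) and Tob1, an antiproliferative Smad partner (6.08, 5.02 to 7.42), beside 5.59% of all genes higher and 10.3% lower. The partners Smad2 and Smad4 were within 2-fold, at 23.4 and 12.5 CPM in skin and 21.6 and 18.1 in lymph node. Between lung and liver, 3 of 16 measured genes of this list were at least 2-fold lower in lung and 0 higher, beside 2.56% and 3.41% of all genes. These were Smurf2, Bambi and Tgif2. Bambi was at 4.58 against 15.6 CPM and Tgif2 at 1.61 against 6.74 CPM, and Tgif1 was lower in lung as well.

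Of genes known to be raised by TGF-beta, 4 of 10 measured were at least 2-fold higher in skin than in lymph node and 0 lower, beside the same 5.59% and 10.3% of all genes. These were Klf10 (4.74, 3.98 to 5.66), the E-cadherin gene Cdh1 (4.47, 3.37 to 6.02), Junb (2.46, 2.40 to 2.51) and the cell cycle inhibitor Cdkn2b (2.32, 1.21 to 4.62). Itga1, the CD49a chain of many resident cells, was at 48.6 and 41.9 CPM (1.16, 0.934 to 1.44), and Itgae lay below 2-fold. Of genes known to be lowered by TGF-beta in T cells, 2 of 7 measured were higher in skin and 2 lower, beside those same shares. Ifng, which encodes interferon gamma, was at 2245 against 171 CPM (13.1, 12.2 to 14.1) and Tbx21, which encodes T-bet, at 190 against 58.9 CPM (3.22, 2.79 to 3.73), both higher in skin. Klf2 was 2.06-fold lower (1.84 to 2.30) and its target S1pr1, the receptor for lymph node exit, 2.82-fold lower (1.66 to 5.04). The median log2 ratio of the raised list was 0.60 and that of the lowered list -0.01, beside -0.20 over all genes, and Junb, Ifng and Klf10 are also known to respond to stimulation.

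Within lung, cluster 8 had 2 of 10 measured genes of the raised list at least 2-fold higher, Cdh1 and Cdkn2b, and 0 lower, where 12.6% of all genes were higher and 8.32% lower. Of the lowered list 3 of 8 were lower, Gzmb, S1pr1 and Klrg1, and 1 was higher, Myc. Within lymph node, cluster 0 had 4 of 9 measured genes of the raised list lower (Itgae, Itga1, Cdh1 and Nedd9) and 2 higher (Nt5e and Runx1), where 12% of all genes were lower and 5% higher. Of the lowered list 3 of 7 were higher there (Klf2, S1pr1 and Myc) and 3 lower (Tbx21, Gzmb and Prf1). Between Itgae-detected and other skin cells 1 of 9 genes of the raised list other than Itgae, Nt5e, was at least 1.5-fold higher. Of all genes 11% were higher and 5.32% lower, and 0 of 6 of the lowered list were apart in either direction. In lymph node 2 of 8 of the raised list were higher, Itga1 and Cdh1, and 1 lower, Nt5e, beside 5.35% and 5.07% of all genes. Of the lowered list 3 of 7 were lower there, Klf2, S1pr1 and Myc, and 1 higher, Tbx21. In lung 0 of 9 of the raised list were higher and 1 lower, Nt5e, beside 3.74% and 5.54%. In liver 0 of 7 were apart, beside 7.18% and 7.91%. Of the lowered list 1 gene was lower in each, Myc in lung and Prf1 in liver.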

How the data were processed

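The data are 1 deposited table of counts, whole numbers for 9223 genes by 5727 cells, in which the name of a cell gives its tissue. The submitters' processing notes list Bowtie, RSEM and mm10, with no version in the sources used here, and whether counts are of molecular identifiers is unknown here. The 4 samples of a tissue differ in a lane-like ending only and were taken as 1 library, with 0 columns left without a tissue.

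Pooled CPM is the sum of a gene over the cells of a tissue or set, scaled to 1000000 total counts. Ratios carry the exact 95% interval of the conditional binomial, levels the Poisson and shares the Clopper-Pearson interval, and none gives a p-value. A ratio needed at least 20 summed counts to be counted as 2-fold between tissues or clusters, or 1.5-fold within a tissue, and none was formed where both counts were at most 3. Cells were thinned to 1886 counts, the 10th percentile, for shares, with 141 cells of skin, 273 of lung, 27 of liver and 131 of lymph node below that depth. Clusters came from scanpy 1.11.5 (2000 variable genes, 30 principal components, 15 neighbors, Leiden resolution 0.6), and Scrublet called 27, 10, 17 and 8 doublets in skin, lung, liver and lymph node, which were kept. In lung and lymph node that is under 0.5% of cells, so few doublets may have been found there. Of all barcodes 19 occurred in more than 1 tissue. Positions are from GENCODE on GRCm38.

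The members and lists were chosen with earlier results of these data known. Named were the members, Itgae, listed pathway, stimulation and marker genes, and the 3 genes most like each member with at least 200 counts, of which the text gives some. CD4 T cell, hepatocyte and fibroblast markers were not among the genes of the table, and Csf1r and Adgre1 were at 0. The summed level of B cell markers was from 2.13 to 26.9 CPM. That of myeloid markers was from 238 to 289 CPM, with Cst3 at 223 to 262 CPM. Simulated counts with known folds were used to check the script that forms ratios.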

Additional observations from a re-analysis of the deposited data

Results flagged for a closer look

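Skil was flagged because, before depth was matched, its relation to Itgae differed in direction between skin and lung, 2 tissues picked from 40 ratios. Its level in Itgae-detected over other cells was 1.27 in skin (1.02 to 1.58) and 0.591 in lung (0.381 to 0.905), so that both intervals lay off equality on opposite sides. The difference between the 2 tissues was not tested, since each tissue is 1 library. In skin the ratio was 1.59 with Itgae read at equal depth and 0.444 (0.174 to 1.13) among the 56 cells without a count of Fos, Fosb, Egr1 or Nr4a1. The share of skin cells with a Skil count at equal depth was 26.2% in Itgae-detected and 18.9% in other cells, a difference of 7.30 percentage points that was 1.77 with another random thinning. In lung the ratio was 0.694 (0.392 to 1.21) without cluster 8, and at equal depth the shares were 2.36% and 2.27%. As given above, the lung ratio was nearer equality within classes of depth. It lay close to equality with Itgae read at equal depth, so the lower level in lung was not kept there.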

How the results depend on the processing

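No paired analysis was possible because the cell names carry the tissue but no lane or replicate number, and for the same reason no replicate could be left out. Of the recomputed tissue ratios 449 moved by less than their counting interval and 31 by more. All 60 ratios stayed within it without called doublets, without shared barcodes, without cycling cells and without the top cell of each gene. Of the 31, 17 were among cells without a count of Fos, Fosb, Egr1 or Nr4a1 and 7 without lung cluster 8. The rest were 4 with size factors, 2 with each cell weighted equally and 1 without lymph node cluster 0. The median log2 ratio of skin over lymph node was 1.11 among cells without Fos, Fosb, Egr1 or Nr4a1 and 1.83 over the 9 genes with at least 100 counts, and that of skin over lung 1.79 among those cells. For the settings that follow, the share of all genes past the fold was not computed, except for 1 skin split given below with its shares. The counts of these genes are therefore not set against a background. For lung over lymph node, genes at least 2-fold apart numbered 1 with size factors, 3 without cycling cells and 1 with each cell weighted equally, against 5. For liver over lymph node there were 3 with size factors against 5, and for lung over liver 2 without lung cluster 8 against 1. For skin over liver there were 4 of 7 among cells without a count of the 4 stimulation genes against 7 of 10. Genes at least 1.5-fold apart between Itgae-detected and other skin cells numbered 1 with at least 2 Itgae counts or at equal depth. They also numbered 1 without the top cell or within 3 classes of depth. Among cells without a count of the 4 stimulation genes they numbered 3 of 3 measured (Tgfb1, Skil and Tgif1, all lower). That split set only 38 cells against 18, the median log2 ratio of the 3 genes was -0.84 beside 0.05 over all 1267 genes measured, and 12.9% of those were 1.5-fold lower and 16.3% higher. In lung such genes numbered 1 with at least 2 Itgae counts or among cells without a count of those 4 genes. They numbered 0 at equal depth, within the 3 classes of depth or without cluster 8, and the Skil ratio turned to 1.01 at equal depth. In liver they numbered 1 with at least 2 Itgae counts or at equal depth. In lymph node they numbered 1 among cells without a count of those 4 genes and 0 without cluster 0. Leiden resolution 1.0 returned the same 165 cells for lymph node cluster 0 and 301 cells, 292 of them shared, for lung cluster 8. Alternatives without cluster 8, cluster 0 or shared barcodes were chosen after seeing the data, and the cause of these differences was not tested. Depth limits Pmepa1, Ldlrad4 and Smad3 most, with 6, 8 and 19 counts in liver.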
